A study of Mus musculus with 8 samples.

Results

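The genes described here are 10 members of the arginase and polyamine pathway in mouse oocytes (*Arg2*, *Odc1*, *Oaz1*, *Oaz2*, *Azin1*, *Amd1*, *Srm*, *Sms*, *Sat1* and *Smox*), out of 15962 genes listed in every library. *Arg2* was chosen by its measured values, namely its low level in MII oocytes and its high level in MII oocytes with mutant BTG4, and its values are therefore given as a description with no test. The other 9 were listed by their role in the pathway, to ask whether they moved as *Arg2* did. All 10 were among the 13968 genes that reached 1 TPM in 2 or more libraries, on which the tests were run. TPM is the share of a library that belongs to a gene after correction for gene length, in units that sum to the same total in every library.

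The 8 libraries, each made from 15 zona-free oocytes of superovulated ICR (CD1) females aged 6 weeks, fell into 4 groups of 2. GV oocytes are arrested in prophase of meiosis I with an intact germinal vesicle, and MII oocytes have matured to metaphase of meiosis II. Both were uninjected and came from in vitro culture. The injected groups were MII oocytes that had received Myc-tagged cRNA of *Btg4*, either wild type (Btg4wt) or a mutant whose 3 neighbouring phosphosites were replaced by alanine (Btg4tm). BTG4 is a maternal adaptor that brings the CCR4-NOT deadenylase to mRNA. The injected oocytes were not knockouts, so their values include endogenous *Btg4*. The labels speak of 3 samples per group, and 2 per group were analysed here. Nothing in the labels ties the libraries of a group to separate animals, so the p-values measure the spread between these libraries, which may be technical.

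Arginase cleaves arginine into urea and ornithine, and ARG2 is the mitochondrial arginase. Ornithine decarboxylase (ODC1) turns ornithine into putrescine, the first polyamine. Spermidine synthase (SRM) and spermine synthase (SMS) then add aminopropyl groups that AMD1, the S-adenosylmethionine decarboxylase, supplies. Antizymes (OAZ1, OAZ2) bind ODC1 and send it to the proteasome, and the antizyme inhibitor AZIN1 releases it. SAT1 acetylates polyamines for export or breakdown, and SMOX oxidizes spermine back to spermidine. Polyamines bind RNA and are needed for growth and translation, and ODC activity in the mouse ovary is known to rise around ovulation. Fully grown oocytes do not transcribe, so RNA levels in maturation follow stability and, with an oligo(dT) primer as used here, poly(A) tails. The values cannot tell fewer molecules from shorter tails.

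*Arg2*, *Srm* and *Smox* were low in both MII and Btg4wt oocytes and high in both GV and Btg4tm oocytes. The other 7 members were higher in the MII than in the GV libraries, and *Odc1*, *Oaz1* and *Azin1* were lower in Btg4tm than in Btg4wt libraries, directions that turned when values were scaled to the mitochondrially encoded genes. For *Oaz2*, *Amd1*, *Sms* and *Sat1* the difference between Btg4tm and Btg4wt did not pass the test. Of the 9 members other than *Arg2*, 2 thus had its direction in both comparisons. The share of all genes tested with that direction in both was not taken, so the count has no background beside it.

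**Figure D1:**
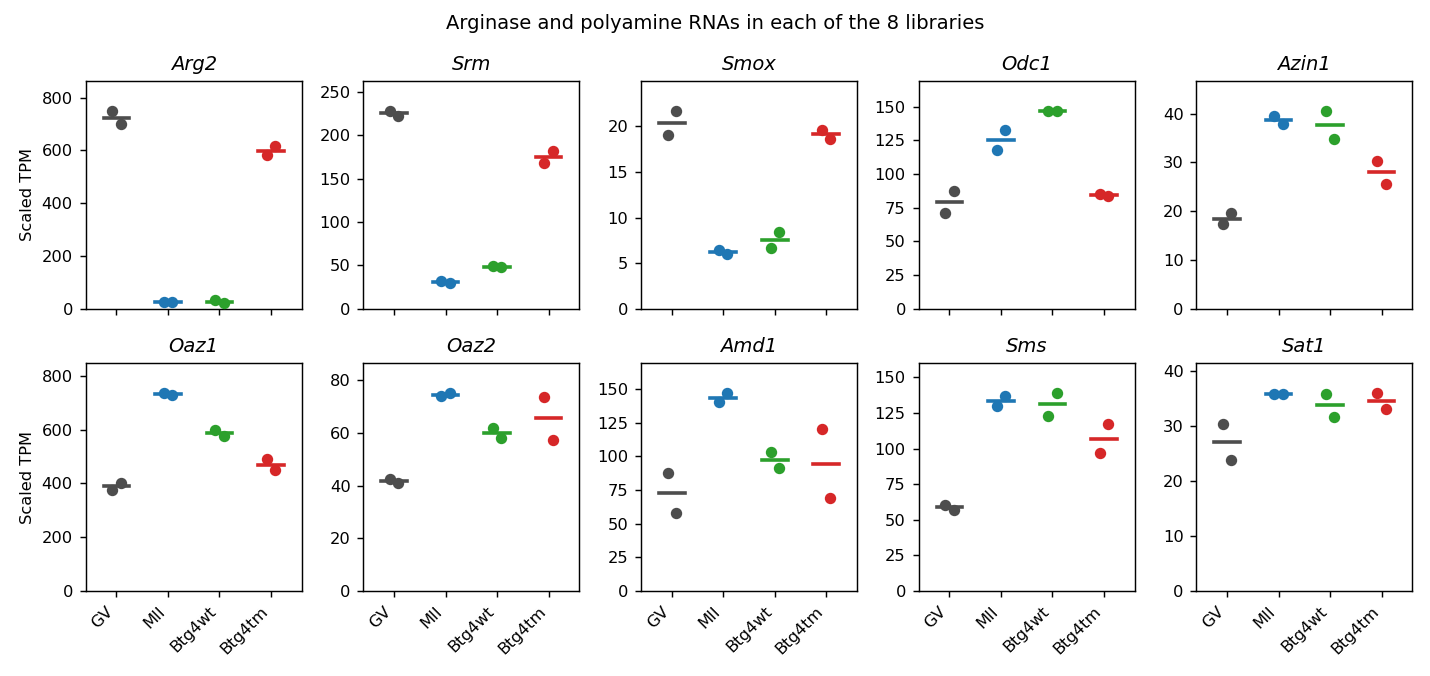
Scaled TPM (linear axis from 0, a separate scale per gene) of the 10 members in the 4 groups. Each point is 1 library and each line the mean of 2. *Arg2*, *Srm* and *Smox* are high in GV and Btg4tm libraries and low in MII and Btg4wt libraries, while the other 7 have their lowest mean in GV libraries, an order that scaling to mitochondrially encoded genes turned for MII against GV.

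*Arg2* lies on the plus strand of chromosome 12 (GRCm38, chr12:79130777-79156301, GENCODE M21). Its levels were 750 and 698 scaled TPM in GV, 24.8 and 24.5 in MII, 31.8 and 24.0 in Btg4wt, and 581 and 616 in Btg4tm. The GV and Btg4tm libraries lay far above the other 4, and the MII and Btg4wt libraries overlapped. The log2 fold change was -4.82 (SE 0.14) in MII over GV, a 28.2-fold lower level, and rank 39 from the lowest of the 13968 genes. In Btg4tm over Btg4wt it was 4.39 (SE 0.14), a 20.9-fold higher level and rank 33 from the highest. The rule used these differences and had no stated threshold, so they are given as the values behind the choice. Btg4tm oocytes stood 0.27 below GV oocytes on the log2 scale. Put as a share, 91.1% of the log2 decline was regained, or 81.6% on the linear scale. The SD of the log2 share, 6.1, was propagated from the SDs of the 4 groups (n = 2 each).

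Part of the *Arg2* signal could not be assigned by strand. *Vti1b*, a SNARE gene on the opposite strand, shares 285 bases with the last *Arg2* exon (chr12:79156017-79156301), which is 20.0% of the exonic bases of *Arg2*, and counting ignored strand. The minus-strand gene *Gm48780* shares another 116 bases (8.12%), so that 28.1% of the exonic bases overlap other genes. *Vti1b* itself stood at 178 and 173 scaled TPM in GV, 34.3 and 35.0 in MII, 32.3 and 39.3 in Btg4wt, and 172 and 174 in Btg4tm libraries. Its levels lay below those of *Arg2* in the GV and Btg4tm libraries and above them in the MII and Btg4wt libraries. The counting options that the paper lists include none that counts a read for several genes, so reads over shared bases may be missing from *Arg2*. How these reads bear on the *Arg2* values was not tested.

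Of 6881 tested genes that averaged 10 scaled TPM or more, *Ppil3*, *Rpa2*, *Ppie*, *Atp5g1* and *Rps27a* were most like *Arg2*, by the root mean square difference of their 8 mean-centred log2 values. That difference was 0.12 for *Ppil3* (a cyclophilin-family gene) and 0.17 for *Rps27a*, which encodes a ubiquitin and ribosomal protein fusion. Among members, *Srm* came in place 686 with a difference of 1.16 and *Smox* in place 1371 with 1.61. The other 7 lay between place 3446 and place 5315.

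*Srm*, the gene of spermidine synthase (chr4:148591503-148594993, plus strand), was measured at 228 and 222 scaled TPM in GV, 32.5 and 30.3 in MII, 49.1 and 47.9 in Btg4wt, and 168 and 182 in Btg4tm libraries. No 2 groups overlapped. *Srm* fell by 2.80 on the log2 scale in MII relative to GV (SE 0.10, 6.98-fold, adjusted p = 5.1e-07). It was higher by 1.83 in Btg4tm than in Btg4wt (SE 0.10, 3.55-fold, adjusted p = 4.8e-06). The regained share was 65.3% (SD 3.53, propagated from the 4 groups, n = 2 each). The mutant difference was smaller than the maturation difference (sum of both log2 differences -0.97, SE 0.14, adjusted p = 0.016). The adjusted p of that sum was 0.062 without GV replicate 2, 0.074 and 0.065 without MII replicate 1 or 2, and 0.06 without Btg4wt replicate 1.

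*Smox*, which codes for spermine oxidase (chr2:131491496-131525922, plus strand), stood at 19.0 and 21.7 scaled TPM in GV, 6.49 and 5.97 in MII, 6.69 and 8.38 in Btg4wt, and 19.6 and 18.6 in Btg4tm libraries. GV and Btg4tm libraries overlapped each other and lay above the other 4. *Smox* fell by 1.56 on the log2 scale in MII (SE 0.17, 2.94-fold, adjusted p = 7.7e-05) and was higher by 1.24 in Btg4tm than in Btg4wt (SE 0.17, 2.37-fold, adjusted p = 0.00042). The regained share was 79.8% (SD 15.4, propagated from the 4 groups, n = 2 each). *Srm* and *Smox* kept both calls under every scaling and without any 1 library.

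*Odc1*, the rate-limiting decarboxylase (chr12:17544794-17551505, plus strand), went the other way. Its levels were 71.2 and 87.7 scaled TPM in GV, 118 and 133 in MII, 147 and 147 in Btg4wt, and 85.1 and 83.4 in Btg4tm libraries. The GV and Btg4tm libraries overlapped and lay below the MII and Btg4wt libraries. *Odc1* was higher in MII than in GV by 0.66 on the log2 scale (SE 0.12, adjusted p = 0.0019) and lower in Btg4tm than in Btg4wt by 0.80 (-0.80, SE 0.12, adjusted p = 0.00096). Scaled to the mitochondrially encoded genes these differences were -1.54 and 0.28, and relative to the median of all genes under that scaling they were 0.20 and -0.60. Under the main scaling both differences, 0.66 and -0.80, were under the minimum of 1 in size that a call needed. With quantile normalization the second was -1.03 (adjusted p = 0.00039), just past it. Its transcript shares stretches of at least 50 bases with 15 other genes over 61.5% of its length, mostly pseudogenes. The 5 of these that were listed summed to between 54.1 and 90.2 scaled TPM per library, so the split of reads between *Odc1* and its copies is uncertain.

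*Azin1*, the antizyme inhibitor gene (chr15:38487427-38519266, minus strand), was measured at 17.3 and 19.6 scaled TPM in GV, 39.5 and 37.8 in MII, 40.6 and 34.9 in Btg4wt, and 30.4 and 25.5 in Btg4tm libraries. Btg4tm libraries lay between the GV libraries and the other 4. The log2 difference was 1.03 in MII over GV (SE 0.14, adjusted p = 0.00036), just past the minimum for a call, and -0.42 in Btg4tm over Btg4wt (SE 0.14, adjusted p = 0.039). The first difference was 0.88 with TPM as deposited and as low as 0.94 with 1 library left out, both short of that minimum. The second difference was lost without Btg4wt replicate 1 (-0.32, adjusted p = 0.19), Btg4tm replicate 2 (adjusted p = 0.18), MII replicate 1 (0.061) or MII replicate 2 (0.06).

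*Oaz1*, the main antizyme gene (chr10:80826656-80829290, plus strand), stood at 377 and 401 scaled TPM in GV, 736 and 730 in MII, 599 and 577 in Btg4wt, and 489 and 450 in Btg4tm libraries. No 2 groups overlapped, and the order ran from GV through Btg4tm and Btg4wt to MII. *Oaz1* was higher in MII than in GV by 0.91 on the log2 scale (SE 0.09, adjusted p = 5.6e-05). It was lower in Btg4tm than in Btg4wt by 0.33 (-0.33, SE 0.09, adjusted p = 0.017), and this was lost without Btg4wt replicate 1 (adjusted p = 0.086), Btg4wt replicate 2 (0.052) or Btg4tm replicate 2 (0.065). Its transcript shares 65.4% of its length with the pseudogene *Oaz1-ps*, listed at 5.35 to 25.7 scaled TPM.

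*Oaz2*, a second antizyme gene (chr9:65668001-65690300, plus strand), had 42.6 and 40.9 scaled TPM in GV, 73.8 and 75.1 in MII, 61.9 and 58.1 in Btg4wt, and 73.6 and 57.4 in Btg4tm libraries. All 6 MII-stage libraries lay above the GV libraries, and the injected groups overlapped. *Oaz2* was higher in MII than in GV by 0.82 on the log2 scale (SE 0.13, adjusted p = 0.00086). Btg4tm and Btg4wt differed by 0.11 (SE 0.13, adjusted p = 0.51). Btg4tm stood above GV by 0.63 (adjusted p = 0.024). This was lost under scaling to mitochondrially encoded genes (0.00, adjusted p = 0.99), with TPM as deposited (adjusted p = 0.065), with only the libraries compared (adjusted p = 0.075) and without GV replicate 1 (0.077), GV replicate 2 (0.13) or Btg4tm replicate 1 (0.082).

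*Amd1*, the S-adenosylmethionine decarboxylase gene (chr10:40287458-40302186, minus strand), differed widely between the libraries of the GV and Btg4tm groups. It stood at 87.6 and 58.1 scaled TPM in GV, 140 and 147 in MII, 103 and 91.7 in Btg4wt, and 120 and 69.2 in Btg4tm libraries. The MII libraries lay above all others, the GV and Btg4tm libraries overlapped, and the Btg4wt libraries lay within the range of the Btg4tm libraries. *Amd1* was 1.99-fold higher in MII than in GV (SE 0.26 on the log2 scale, adjusted p = 0.01), just short of the minimum for a call. Without GV replicate 2 the log2 difference was 0.70 (adjusted p = 0.076). Btg4tm and Btg4wt differed by -0.09 (SE 0.26, adjusted p = 0.79). Stretches of at least 50 bases shared with 8 other genes cover 98.5% of its transcript, so its level is uncertain. The 3 of these genes that were listed summed to between 2.44 and 9.84 scaled TPM per library. Such shared stretches also cover 29.6% of the transcript of *Sms*, 25.6% of *Sat1*, 22.9% of *Oaz2* and 9.64% of *Srm*.

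*Sms*, the spermine synthase gene on the X chromosome (chrX:157443855-157492287, minus strand), was measured at 60.7 and 56.7 scaled TPM in GV, 130 and 137 in MII, 123 and 139 in Btg4wt, and 97.1 and 117 in Btg4tm libraries. Every MII-stage library lay above the GV libraries, and the Btg4tm libraries lay below the MII and Btg4wt libraries. *Sms* was higher by 1.17 on the log2 scale in MII (SE 0.12, 2.26-fold, adjusted p = 7e-05). The difference between Btg4tm and Btg4wt was -0.29 (SE 0.12, adjusted p = 0.08). Btg4tm stood above GV by 0.85 (SE 0.12, adjusted p = 0.0067), which was lost under scaling to mitochondrially encoded genes (0.22, adjusted p = 0.37) and without GV replicate 2 (adjusted p = 0.055).

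*Sat1*, the spermidine/spermine acetyltransferase gene (chrX:155213132-155216449, minus strand), had 30.4 and 23.9 scaled TPM in GV, 35.9 and 35.9 in MII, 35.9 and 31.7 in Btg4wt, and 36.0 and 33.1 in Btg4tm libraries. Its 3 MII-stage groups overlapped. The difference of 0.40 in MII over GV (SE 0.15, adjusted p = 0.041) was lost without GV replicate 2 (0.23, adjusted p = 0.24), either MII replicate (0.12 each) or Btg4wt replicate 1 (0.051), and with TPM as deposited (0.18). Btg4tm and Btg4wt differed by 0.03 (SE 0.15, adjusted p = 0.88).

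In counts, a call needed an adjusted p under 0.05 and a log2 difference over 1 in size. In MII over GV, 2 of the 9 members other than *Arg2* were called lower (*Srm*, *Smox*), beside 24% of all genes tested, and 2 were called higher (*Azin1*, *Sms*), beside 12.5%. By adjusted p alone, 2 were lower, beside 32.8% of all genes, and 7 were higher, beside 29.8%. In Btg4tm over Btg4wt, 2 were called higher (again *Srm* and *Smox*), beside 18.1%, and 0 were called lower, beside 7.94%. By adjusted p alone, 2 were higher, beside 26.2%, and 3 were lower (*Odc1*, *Oaz1*, *Azin1*), beside 23.3%. The shares called lower in MII and higher in Btg4tm were near the background. The median log2 difference of the 9 was 0.82 in MII over GV, beside 0.00 over all genes, and -0.09 in Btg4tm over Btg4wt, beside 0.01.

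All 7 members that were higher in MII than in GV were lower once values were scaled to the mitochondrially encoded genes, a scaling that moved the median of all genes to -1.74 in that comparison and to 0.88 in Btg4tm over Btg4wt. Relative to that median, 6 of the 7 stayed higher in MII (0.20 for *Odc1* to 0.72 for *Sms*), and *Sat1* stood at -0.01. In Btg4tm over Btg4wt, *Odc1*, *Oaz1*, *Azin1*, *Amd1* and *Sms* turned positive under it, and relative to the median they stood at -0.60, -0.12, -0.25, 0.10 and -0.10. *Arg2*, *Srm* and *Smox* kept their directions.

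**Figure D2:**
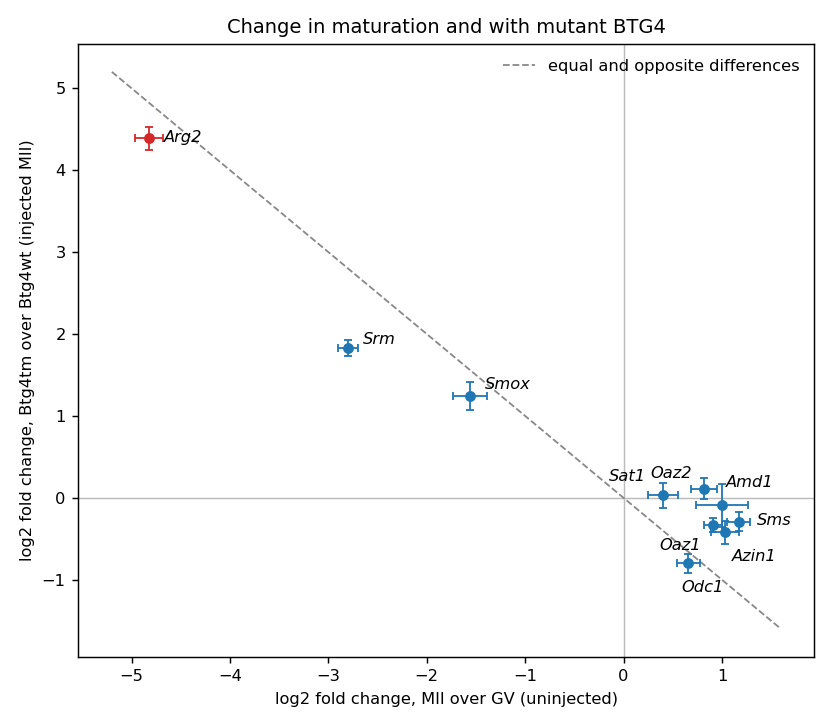
Log2 fold change of each member in MII over GV (horizontal) and in Btg4tm over Btg4wt (vertical), with standard errors as bars. The comparisons share no library, and the dashed line marks equal and opposite differences. *Arg2* (-4.82 and 4.39), *Srm* and *Smox* lie in the upper left, and the other 7 lie right of 0, which under scaling to mitochondrially encoded genes became left of 0.

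The size of both differences was compared through their sum, which is 0 where the mutant difference undoes the maturation difference in full. It passed the test for 4 of the 9 members (*Oaz1* 0.58, *Oaz2* 0.93, *Srm* -0.97, *Sms* 0.88), beside 7.62% of all genes tested. Scaled to mitochondrially encoded genes it turned negative for *Oaz1*, *Oaz2* and *Sms*. The count was 0 without GV replicate 2, without either MII replicate or without Btg4wt replicate 1. For *Odc1* the sum was -0.14 (SE 0.18, adjusted p = 0.65) and for *Smox* -0.31 (SE 0.23, adjusted p = 0.43).

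No member was called between Btg4wt and MII, where 0% of all genes were called lower and 0% higher. There, *Srm* had an unadjusted p of 0.00026 (log2 difference 0.61, adjusted p = 0.12). In the same comparison *Oaz1* (-0.32, adjusted p = 0.28) and *Oaz2* (-0.31, adjusted p = 0.42) also had unadjusted p-values under 0.05. The share of all genes tested with such unadjusted p-values was not taken. Between Btg4tm and GV no member was called either, beside 1.02% of all genes lower and 1.02% higher. In these comparisons the injection and the set of tables cannot be told apart, and they share libraries with the ones above.

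Within a library, the ratio of 2 genes does not depend on the scaling. These ratios were chosen after the values were seen and carry no test. *Srm* over *Sms*, the RNAs for the consecutive synthases, was 3.76 and 3.9 in GV, 0.25 and 0.22 in MII, 0.398 and 0.346 in Btg4wt, and 1.73 and 1.56 in Btg4tm libraries. The RNA of spermidine synthase thus outnumbered that of spermine synthase per length in GV and Btg4tm oocytes and not in the others. *Arg2* over *Odc1*, the steps that make and use ornithine, was 10.5 and 7.95 in GV, 0.211 and 0.185 in MII, 0.216 and 0.163 in Btg4wt, and 6.82 and 7.38 in Btg4tm libraries. *Smox* over *Sat1*, both catabolic, ranged from 0.545 to 0.908 in GV and Btg4tm libraries and from 0.166 to 0.264 in the others. *Odc1* over *Oaz1*, the enzyme and its antizyme, ranged from 0.16 to 0.255 over the 8 libraries. It was 0.246 and 0.255 in Btg4wt, above all other libraries, and 0.174 and 0.185 in Btg4tm. *Azin1* over *Oaz1* ranged from 0.0459 to 0.0677.

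**Figure D3:**
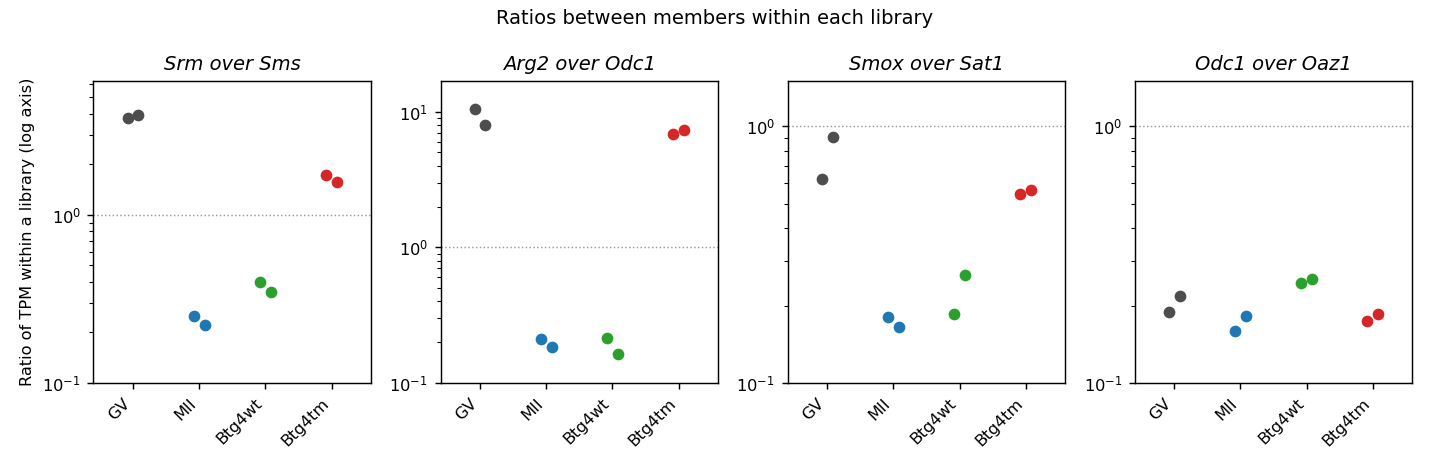
Ratios of TPM between members within each library (log axes), 1 point per library, with a dotted line at 1. *Srm* over *Sms* is above 1 in GV and Btg4tm libraries (1.56 to 3.9) and below 1 in MII and Btg4wt libraries. *Arg2* over *Odc1* is placed likewise. *Odc1* over *Oaz1* ranges from 0.16 to 0.255 and is highest in Btg4wt libraries.

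The order of levels changed with these ratios. In GV oocytes, *Arg2* led (724 ± 37.3 scaled TPM, SD, n = 2), ahead of *Oaz1* (389 ± 17.1) and *Srm* (225 ± 4.81). In MII oocytes, *Oaz1* led (733 ± 4.26), followed by *Amd1* (143 ± 5.23), *Sms* (134 ± 5.12) and *Odc1* (125 ± 10.5), with *Sms* and *Odc1* overlapping. *Arg2* was then in the ninth place (24.7 ± 0.225), above only *Smox* (6.23 ± 0.365). In Btg4wt oocytes the first was *Oaz1* (588 ± 15.9) and *Arg2* was again in the ninth place (27.9 ± 5.56), overlapping *Sat1*. In Btg4tm oocytes, *Arg2* (598 ± 24.4), *Oaz1* (469 ± 27.4) and *Srm* (175 ± 9.88) were again the first members, as in GV oocytes. *Sms*, *Amd1* and *Odc1* followed there, and *Amd1* overlapped both *Sms* and *Odc1*.

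The annotated 3′ UTRs of the members differ in length and in a motif that the rule did not use. Those of *Arg2*, *Smox* and *Srm* have 270, 303 and 312 bases, against a median of 945 over 10907 tested genes with a coding model. Those of *Azin1*, *Sms*, *Amd1* and *Oaz2* have 2934, 2282, 1871 and 1075 bases, while *Sat1*, *Odc1* and *Oaz1* have 365, 333 and 286. The cytoplasmic polyadenylation element (searched as TTTTAT or TTTTAAT, on the RNA strand) is the site through which CPEB is known to lengthen tails in maturing oocytes. It occurs in the annotated 3′ UTR of *Odc1*, *Oaz1*, *Azin1*, *Amd1* and *Sms*, in 5 of the 7 members higher in MII, and not in that of *Arg2*, *Srm* or *Smox*. Over all tested genes with a model, 60.5% hold it. The last occurrence in each is shown to let the sites be compared, read 5′ to 3′ from GENCODE M21 transcripts on GRCm38, with the motif in capitals:
*Odc1*: tattacatggatTTTTATtcacttttcaga
*Oaz1*: tctattttacttTTTTATtgctgtttaaga
*Azin1*: cacaatgaagcTTTTAATgaatggatattc
*Amd1*: tggtgttggacTTTTAATcagctgaaatgt
*Sms*: tcctgctttttTTTTAATgaaagacaaaac

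These motifs end 71 (*Amd1*), 111 (*Oaz1*), 134 (*Odc1*), 313 (*Sms*) and 672 (*Azin1*) bases before the annotated transcript end. Of the members, only *Amd1* has the motif in its last 100 bases, beside 19.7% of all tested genes with a model. Short 3′ UTRs hold the motif less often. It is in 30.9% of the 757 tested genes with a 3′ UTR of 250 to 350 bases and in 81.5% of the 3854 with 1000 to 3000 bases. *Odc1* and *Oaz1* hold it in 3′ UTRs of 333 and 286 bases, about as short as those of *Arg2*, *Srm* and *Smox*. *Sat1* and *Oaz2*, also higher in MII, lack it in 365 and 1075 bases. Whether the motif or the length goes with the direction of a member was not tested. The hexamer AATAAA or ATTAAA, by which the cleavage machinery finds the mRNA end, lies in the last 100 bases of 8 members and of 81.0% of all tested genes with a model. It was not found in this window for *Arg2* and *Srm*, so whether their annotated 3′ UTRs are complete is uncertain.

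Beyond the members, 51 genes of arginine, ornithine, methionine, polyamine and hypusine metabolism were followed in 5 lists. Of these, 39 were listed in every library and 34 were tested. In MII over GV, 9 were called lower and 2 higher, beside 24% and 12.5% of all genes tested. In Btg4tm over Btg4wt, 4 were called lower and 8 higher, beside 7.94% and 18.1%. The medians were 0.03 and 0.22 on the log2 scale, beside 0.00 and 0.01 over all genes.

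In the ornithine and proline list, 4 of 7 tested genes were called lower and 0 higher in MII, beside 24% and 12.5% of all genes, and 3 were called higher and 0 lower in Btg4tm over Btg4wt, beside 18.1% and 7.94%. These enzymes join ornithine and glutamate to proline. *Pycrl*, a pyrroline-5-carboxylate reductase gene that makes proline, was measured at 381 and 368 scaled TPM in GV, 50.2 and 43.5 in MII, 55.3 and 58.7 in Btg4wt, and 255 and 267 in Btg4tm libraries, so that no GV or Btg4tm library came near the other 4. It fell by 2.98 in MII (log2, SE 0.11, adjusted p = 4.9e-07) and was higher by 2.18 with the mutant (SE 0.11, adjusted p = 2.6e-06). *Oat*, the gene of the aminotransferase that takes ornithine toward glutamate and proline, was not called: it stood at 62.0 ± 3.76 in GV, 83.1 ± 4.98 in MII, 88.1 ± 0.426 in Btg4wt and 105 ± 8.86 in Btg4tm, and was named after its values were seen.

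In the arginine list, 8 of 19 genes were tested. In MII, 3 were called lower (*Ass1*, *Nos3* and *Slc7a7*, named after their values were seen, all with a mean under 10 scaled TPM) and 0 higher, beside 24% and 12.5% of all genes. With the mutant, these 3 were called higher and the cationic amino acid transporter genes *Slc7a1* and *Slc7a2* lower, beside 18.1% and 7.94% of all genes. The call of *Slc7a1* was lost under scaling to mitochondrially encoded genes (-0.25, adjusted p = 0.49), without Btg4wt replicate 2 (adjusted p = 0.079) and without Btg4tm replicate 1 (adjusted p = 0.077). *Slc7a2* was at 13.6 ± 0.747 scaled TPM in Btg4wt and 4.96 ± 0.514 in Btg4tm (log2 -1.29, SE 0.21, adjusted p = 0.0012), a difference that was lost under scaling to mitochondrially encoded genes (-0.32, adjusted p = 0.34). GV (9.68 ± 2.93) and MII (13.5 ± 0.538) did not differ past the threshold (0.47, adjusted p = 0.08). *Arg1*, the cytosolic arginase gene, was not listed.

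The methionine and S-adenosylmethionine list holds the *Mat* genes, whose products make the substrate of AMD1, and other genes of methionine metabolism. In MII, 1 of its 9 tested genes was called lower and 1 higher, beside 24% and 12.5% of all genes, and with the mutant 1 was called higher and 0 lower, beside 18.1% and 7.94%. *Mat2b*, the regulatory subunit gene of methionine adenosyltransferase, was at 901 and 810 scaled TPM in GV, 1973 and 2004 in MII, 1934 and 1955 in Btg4wt, and 1602 and 1540 in Btg4tm libraries. It was higher by 1.22 in MII (log2, SE 0.09, adjusted p = 1.4e-05), and lower under scaling to mitochondrially encoded genes. *Mat1a*, a catalytic subunit gene, was at 40.3 ± 0.564 in GV, 14.0 ± 0.131 in MII, 18.4 ± 0.375 in Btg4wt and 35.9 ± 4.08 in Btg4tm, lower by 1.46 in MII (-1.46, SE 0.13, adjusted p = 2.9e-05). *Apip*, of the pathway that returns the by-product of polyamine synthesis to methionine, was at 217 ± 22.4, 111 ± 2.68, 92.2 ± 14.9 and 203 ± 23.4 in the same order of groups, and was called higher with the mutant (1.14, SE 0.14, adjusted p = 3e-04).

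Among 7 other polyamine genes tested, 1 was called higher in MII, beside 12.5% of all genes, and 2 lower with the mutant, beside 7.94%. *Atp13a3*, a polyamine transporter gene, was at 10.7 and 11.7 scaled TPM in GV, 35.5 and 34.5 in MII, 37.4 and 28.3 in Btg4wt, and 14.8 and 16.2 in Btg4tm libraries. It was higher by 1.56 in MII (log2, SE 0.16, adjusted p = 6.1e-05) and lower by 1.02 with the mutant (-1.02, SE 0.16, adjusted p = 0.00097), against -0.55 and 0.02 under scaling to mitochondrially encoded genes. The other called gene was *Satl1* (mean 5.69 scaled TPM), named after its values were seen. Its call was lost under scaling to mitochondrially encoded genes (-0.31, adjusted p = 0.46), without Btg4wt replicate 1 (adjusted p = 0.075) and without Btg4tm replicate 2 (adjusted p = 0.074).

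Spermidine is also the substrate for hypusine, a modified lysine of the translation factor eIF5A, and *Dhps* encodes the first enzyme of that step. Of 3 hypusine genes tested, 1 was called lower in MII, beside 24% of all genes, and 1 higher with the mutant, beside 18.1%. In both it was *Dhps*, named after its values were seen. It was at 6.43 and 5.28 scaled TPM in GV, 0.129 and 0.608 in MII, 0.417 and 0.159 in Btg4wt, and 5.47 and 3.98 in Btg4tm libraries. The log2 difference, on TPM with 1 added, was -2.34 in MII (SE 0.26, adjusted p = 0.00011) and 2.15 with the mutant (SE 0.26, adjusted p = 0.00027). *Eif5a* stood at 409 ± 36.0 in GV, 627 ± 17.3 in MII, 648 ± 7.82 in Btg4wt and 630 ± 137 in Btg4tm and was not called.

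**Figure D4:**
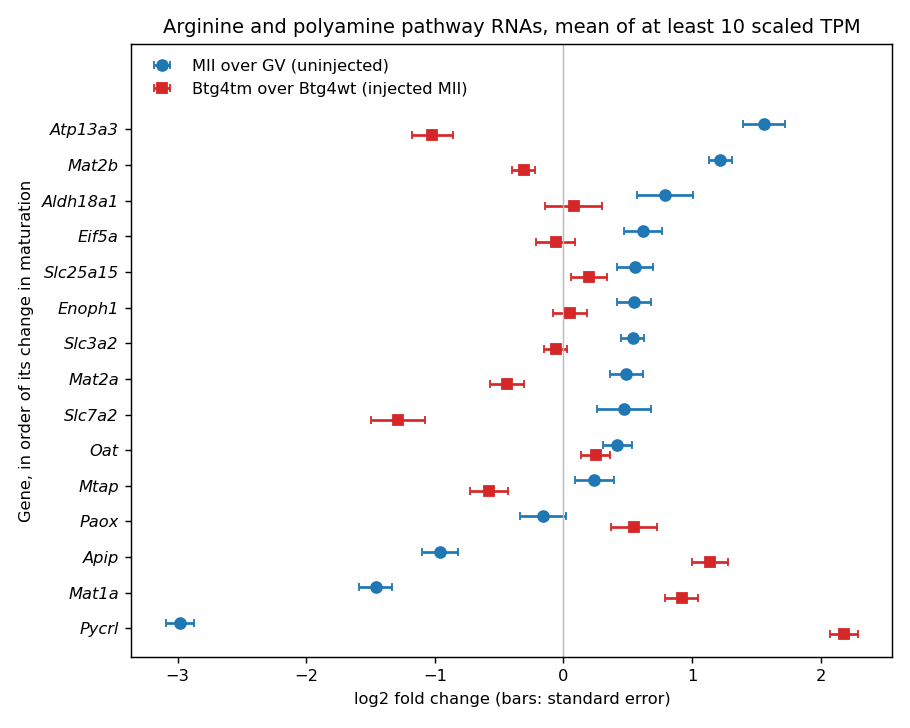
Log2 fold changes with standard errors of 15 other tested pathway genes that averaged 10 scaled TPM or more, in MII over GV (circles) and Btg4tm over Btg4wt (squares), under scaling by the median of ratios. *Pycrl* (-2.98 and 2.18) stands at the lower end of the maturation order and *Atp13a3* (1.56 and -1.02, against -0.55 and 0.02 under scaling to mitochondrially encoded genes) at its upper end.

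The whole series bears on these values as follows. The 10 oocyte markers were all listed and summed to 38109 to 49729 TPM as deposited per library. Of 16 markers of cumulus and granulosa cells, 8 were listed in at least 1 library and 8, among them *Amh*, *Foxl2* and *Has2*, in none. Those listed summed to between 38.9 and 40.6 TPM as deposited in GV, 45.8 and 49.3 in MII, 46.8 and 47.0 in Btg4wt, and 36.8 and 42.0 in Btg4tm, most of it *Cyp19a1* and *Nr5a2*. These sums moved with the groups, and their part in the results was not tested. *Btg4* itself stood at 2722 ± 102 scaled TPM in GV, 5897 ± 149 in MII, 5344 ± 235 in Btg4wt and 3897 ± 243 in Btg4tm (SD, n = 2). In these RNA values the injected groups did not exceed the uninjected MII level. The paper shows overexpressed protein of both BTG4 forms by immunoblot, and reports that endogenous BTG4 seemed to be reduced. How far the injected cRNA enters the RNA values was not tested. Depth per library is unknown, because TPM carry no counts. Replicates correlated at r = 0.982 to 0.987 across genes, which are not independent replicates.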

How the data were processed

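The authors trimmed reads of 8 Smart-seq2 libraries with Trim Galore 0.6.10, aligned them to GRCm38 with HISAT2 2.2.0 and counted them on GENCODE vM25 exons with featureCounts 2.0.6 (mapping quality of at least 10, primary alignments, no strand). They deposited TPM per gene symbol. The gene lengths and the filter on listed genes are not given in the sources used here. Because TPM express shares, a shift in a few abundant RNAs alters every other value, and the depth is unknown.

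Deposited TPM of the 15962 genes common to the uninjected and injected tables were scaled by the median of ratios (factors 0.948 to 1.11) and transformed to log2(TPM + 1). A fold change on this scale understates the change of low genes. limma 3.58.1 in R 4.3.3 (lmFit, contrasts, eBayes with trend) was fitted to the 13968 genes reaching 1 TPM in 2 or more libraries, over all 4 groups, and p-values were Benjamini-Hochberg adjusted over all genes (two-sided). The study names DESeq2, which needs counts and was not used. The procedure was tested on simulated data. Groups came from the sample labels. The members and lists were chosen with earlier results of these data known. The naming rule took all members, and from each pathway list up to 6 genes that averaged 10 scaled TPM or more and had a call in MII over GV or Btg4tm over Btg4wt. Annotation and transcript sequences were GENCODE M21 on GRCm38. Matching was by symbol. Of the pathway genes that the rule took, 1 is not reported here.

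Alternatives changed the scaling (TPM as deposited, quantile normalization, mitochondrially encoded genes), the pseudocount (0.1), the filter (none, or 5 TPM), the fit (libraries compared only, a replicate block, eBayes with no trend) and the call (no fold minimum, or an adjusted p under 0.01). Regained shares were also taken on a linear scale, and each library was left out in turn.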

Additional observations from a re-analysis of the deposited data

How the results depend on the processing

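The calls of *Srm* and *Smox* in both main comparisons kept their direction and side of the threshold under every alternative. Of the 9 members other than *Arg2*, 2 were called lower and 2 higher in MII over GV, and 0 lower and 2 higher in Btg4tm over Btg4wt. The sum of both differences passed the test for 4, beside 7.62% of all genes. Over all genes the calls were 3351 lower and 1752 higher, 1109 lower and 2534 higher, 0 and 0 in Btg4wt over MII, and 142 lower and 143 higher in Btg4tm over GV. A sum that passed is called an unequal loss and regain below, also for *Oaz1*, *Oaz2* and *Sms*, which were higher in MII. Its share of all genes was taken under the main settings only.

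Scaling to mitochondrially encoded genes assumes that those RNAs hold their amount. Under it, all 9 members were called lower in MII and 0 higher (all genes, 11403 lower and 7 higher). In Btg4tm over Btg4wt, 4 members were called higher (all genes, 69 lower and 6089 higher), in Btg4wt over MII 1 (all genes, 69 higher), and over GV the Btg4tm libraries had 2972 genes lower and 38 higher. Reversed in MII over GV were *Odc1* (-1.54), *Oaz1* (-1.30), *Oaz2* (-1.36), *Azin1* (-1.11), *Amd1* (-1.20), *Sms* (-1.02) and *Sat1* (-1.75). Reversed in Btg4tm over Btg4wt were *Odc1* (0.28), *Oaz1* (0.76), *Azin1* (0.63), *Amd1* (0.98) and *Sms* (0.78). Also reversed were *Azin1* in Btg4tm over GV (-0.04) and the sum of both differences for *Oaz1* (-0.54), *Oaz2* (-0.17) and *Sms* (-0.23). Among the other pathway genes named, *Oat* (-1.77), *Slc7a1* (-1.0), *Slc7a2* (-1.56), *Mat2b* (-1.0), *Atp13a3* (-0.55), *Satl1* (-0.87) and *Eif5a* (-1.60) turned lower in MII, and *Mat2b* (0.78), *Atp13a3* (0.02) and *Eif5a* (1.03) turned higher in Btg4tm over Btg4wt. The regained share was 78.1% for *Arg2*, 58.4% for *Srm* and 63% for *Smox*.

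With TPM as deposited, 1 member was called higher in MII (all genes, 1145), Btg4tm over GV gave 287 genes lower and 80 higher, and 2 members had an unequal loss and regain. With quantile normalization, 4 members were called higher in MII (all genes, 3154) and 1, *Odc1*, lower in Btg4tm over Btg4wt (all genes, 1810). Without a minimum fold change, 7 members were higher in MII (all genes, 4168), 3 lower in Btg4tm over Btg4wt (all genes, 3251), and 3 higher in Btg4tm over GV (all genes, 521 lower and 1070 higher). At an adjusted p under 0.01, Btg4tm over GV gave 33 genes lower and 75 higher, and 0 members had an unequal loss and regain, as also with eBayes without trend. Fitting only the libraries compared gave 82 genes lower in Btg4tm over GV. The cause was not tested for any of these, beyond the stated change of threshold or libraries.

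Leaving out each library leaves 1 in its group, which is assumed to vary like the other groups. The members with an unequal loss and regain then numbered 0 to 5, and the genes in Btg4tm over GV 19 to 175 lower and 64 to 191 higher, the fewest without GV replicate 2. Same-numbered libraries did not deviate together (correlations -0.05 to 0.06), which does not settle whether they were collected as pairs. With a replicate block, 3339 genes were lower and 1755 higher in MII over GV, 1 gene was lower in Btg4wt over MII, and the members' counts in the main comparisons did not change. Precision rests on 2 libraries per group, since TPM give no counting error.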
